A study of Arabidopsis thaliana with 9 samples.

Results

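Leaves of Arabidopsis thaliana that lack the catalase CAT2 and the NADPH oxidase RBOHF held less RNA for 95 probe sets whose mean level had moved little in leaves that lack CAT2 and the oxidase RBOHD. These members were chosen by their measured values, out of 22746 probe sets that are not controls (0.418%). A member had a mean of at least 5.5 on the 3 cat2 arrays, a mean in cat2 rbohF lower than in cat2 by 0.8 or more, and a mean in cat2 rbohD no more than 0.3 lower than in cat2. In addition, all 3 cat2 rbohF arrays had to lie below all 3 cat2 arrays. All values are log2 expression values, on which a difference of 1 is a 2-fold change.

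Catalases break down hydrogen peroxide in peroxisomes, and CAT2 is the main catalase of leaves, where much of the peroxide comes from photorespiration. RBOHD and RBOHF sit in the plasma membrane and make superoxide outside the cell, from which hydrogen peroxide forms; both are known for the oxidative burst of plant immunity and for stomatal and stress signalling. In cat2 leaves, peroxide made inside the cell is known to switch on genes of defence and stress, and the oxidases act in the same network.

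The series compared 3 genotypes in the Columbia-0 background, with 3 arrays each, and every group lacked CAT2. The titles call the lines cat2-2 (here cat2), cat2-2 atrbohD (cat2 rbohD) and cat2-2 atrbohF (cat2 rbohF). Each array held RNA of a separate leaf pool of 8 or more plants, grown for 3 weeks in 16 h light and 8 h dark at 200 µmol m-2 s-1 and 65% humidity. Wild-type leaves were not analysed here, so no value says how far a member stood from a leaf with CAT2, and the annotation did not name the probe sets of CAT2, RBOHD or RBOHF, so the genotype labels were not checked by those transcripts. In whole leaves, fewer cells of a type and less RNA per cell cannot be told apart.

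One cat2 rbohD array stood apart from the others over the members. On cat2 rbohD replicates 1 and 2, the median member differed from its cat2 mean by -0.05 and 0.05, and on replicate 3 by -0.51. The medians on the cat2 rbohF arrays were -1.09, -0.79 and -1.04, and those on the cat2 arrays lay between -0.02 and 0.07. Over all 13888 probe sets tested, the same medians lay between -0.01 and 0.02 on every array. Replicate 3 was the lowest cat2 rbohD array for 77 of the 95 members, or 81.1%, against 33.1% of all probe sets tested, while replicate 1 was the lowest for 12 and replicate 2 for 6. It lay below all 3 cat2 arrays for 74 members, against 27 for replicate 1 and 21 for replicate 2. For 50 members its value was nearer to the cat2 rbohF mean than to the cat2 mean, which held for 5 members on replicate 1 and 2 on replicate 2. For these last 2 measures the share over all tested probe sets was not counted, so they describe the members only. The description "lower without RBOHF but not without RBOHD" therefore matched most members on the first 2 cat2 rbohD arrays and not on the third. The rule used the mean of these 3 arrays. Where replicate 3 was low, replicates 1 and 2 had to lie near or above cat2, so their medians near 0 follow from the choice of members.

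**Figure D1:**
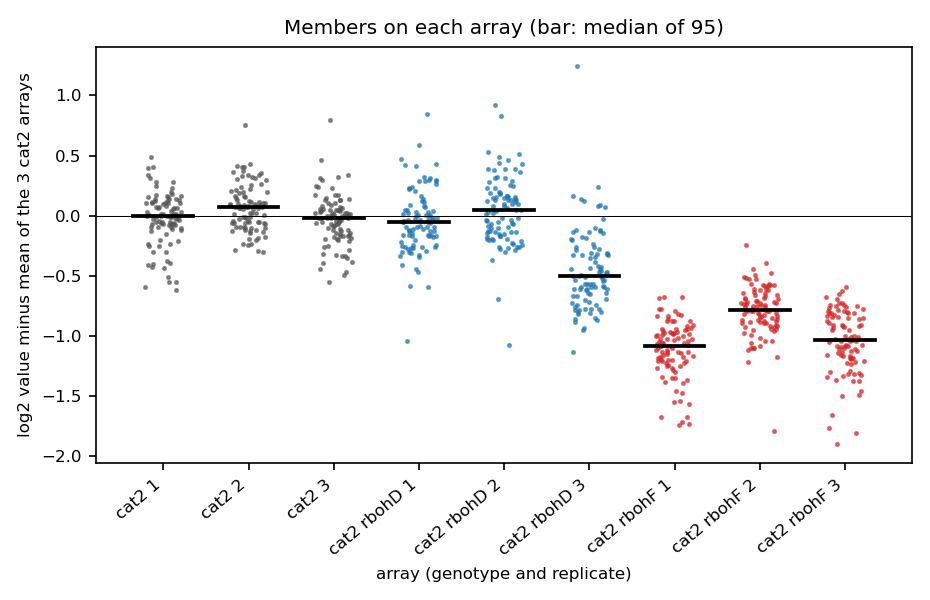
Each point is 1 of the 95 members on 1 of the 9 arrays (horizontal axis), with its log2 value minus the mean of the 3 cat2 arrays on the vertical axis; the bars mark the medians. The members of cat2 rbohD replicates 1 and 2 centre near 0, those of replicate 3 at -0.51 and those of the cat2 rbohF arrays between -1.09 and -0.79.

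Other values of this array were as follows. The 3′ minus 5′ difference of the GAPDH control, a measure of RNA integrity on this array type, was 0.95 on cat2 rbohD replicate 3 against 0.81 and 0.82 on the other cat2 rbohD arrays. It was 0.69, 0.78 and 0.79 in cat2 and 0.87, 0.88 and 0.99 in cat2 rbohF. The second GAPDH control pair ran the other way between genotypes, with means of -0.03 in cat2, -0.13 in cat2 rbohD and -0.22 in cat2 rbohF. On cat2 rbohD replicates 1, 2 and 3 it read -0.15, -0.16 and -0.07. The actin control read 1.49, 1.33 and 1.47 on these arrays. Of the ubiquitin controls, one read 1.21, 1.28 and 1.25 there and the other -0.08, -0.16 and -0.04. The part of RNA integrity in the members' values was not tested.

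Of the marker genes listed for other cell types, 3 could be measured. The photosynthesis gene RCA stood at 14.15, 14.09 and 14.15 in cat2, 14.15, 14.14 and 14.15 in cat2 rbohD and 14.15, 14.19 and 14.15 in cat2 rbohF, a high signal on every array. Replicates 1 and 3 of every genotype had the identical value 14.1518. This value was not the upper limit of the scale, since cat2 rbohF replicate 2 read 14.1866. Identical values also occurred at low levels, as for UGT78D3 with 3.89651 on all 3 cat2 arrays. Why values repeat was not tested, so they do not show that the level of RCA stayed the same. The guard cell gene FMA had means of 5.43, 5.17 and 5.58 in cat2, cat2 rbohD and cat2 rbohF and did not pass in cat2 rbohF against cat2 (limma adjusted p = 0.299). The root β-glucosidase gene PYK10 rose by 1.35 ± 0.25 (SE) in cat2 rbohF (limma adjusted p = 0.00836), with values of 8.11, 6.96 and 7.78 in cat2 against 9.17, 8.71 and 9.01. Its part in the members' values was not tested. No listed marker of vasculature, epidermis, dividing cells or flowers could be named on the array.

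The members' cat2 rbohF means differed from their cat2 means by -1.62 to -0.80, with a median of -0.94, a 1.92-fold lower level. At least a 2-fold difference was reached by 35 of the 95, and 38 lay between -0.8 and -0.9, just inside the rule. The cat2 rbohD differences ran from -0.30 to 0.54 with a median of -0.20. They were negative for 79 members and positive for 16, lay within 0.1 of 0 for 21, exceeded 0.1 for 5, and were at -0.2 or lower for 47. With replicate 3 left out, the median cat2 rbohD difference of the same members was -0.02, with a range from -1.06 to 0.88. Over all probe sets tested, the median difference was 0.00765 in cat2 rbohF and -0.00465 in cat2 rbohD.

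**Figure D2:**
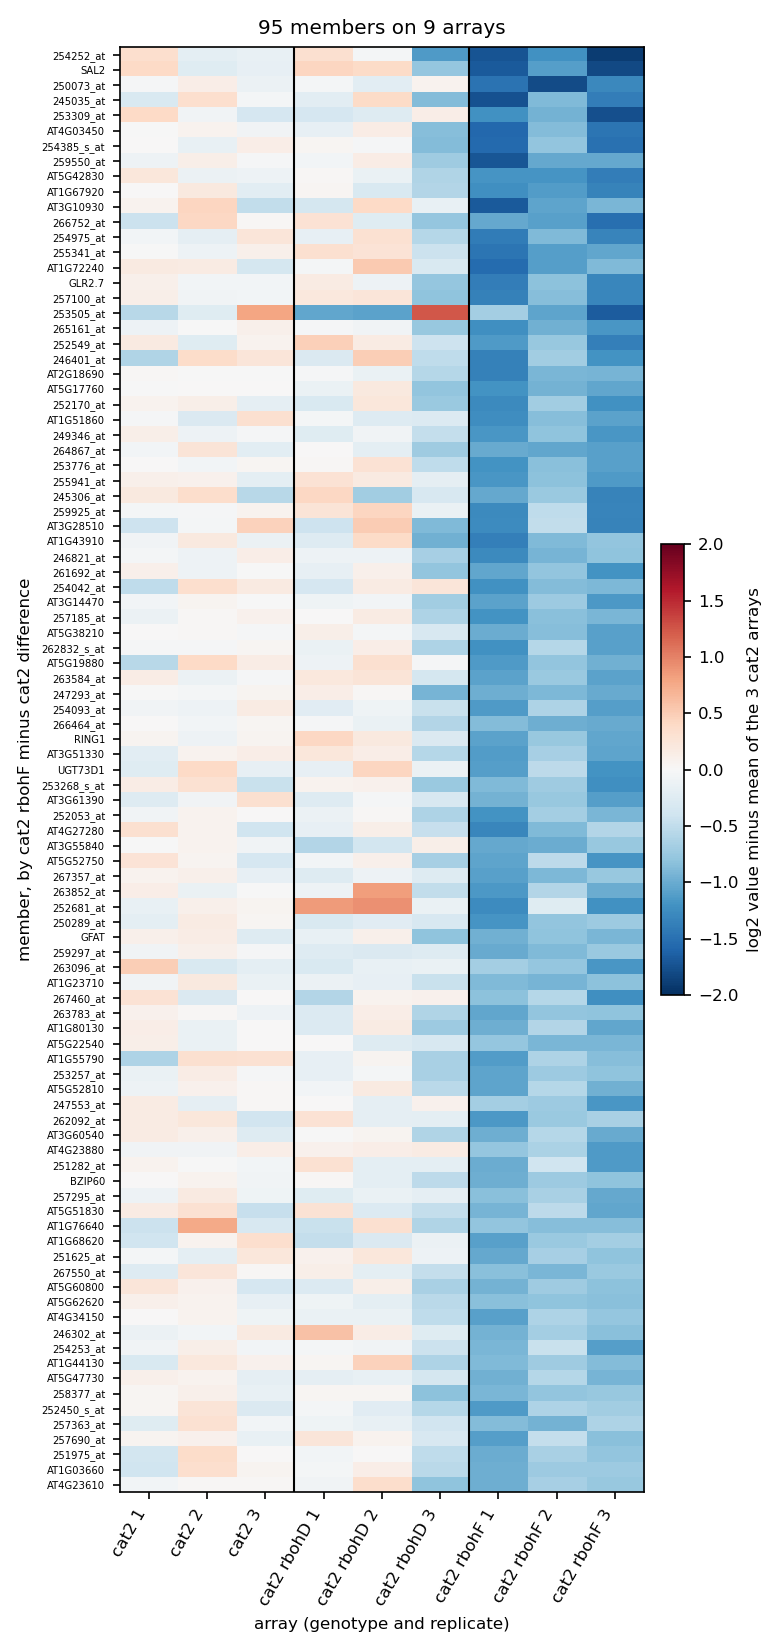
Rows are the 95 members, ordered by their cat2 rbohF minus cat2 difference, and columns are the 9 arrays; the colour is the log2 value minus the mean of the 3 cat2 arrays, red higher and blue lower, with the scale ending at -2 and 2. The cat2 rbohF columns are blue throughout, cat2 rbohD replicates 1 and 2 are mixed and pale, and cat2 rbohD replicate 3 is blue for most rows.

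A limma fit of all 13888 probe sets gives the background for these members, whose own calls are a description, since the rule used the same means. At an adjusted p under 0.05, 9.89% of all tested probe sets were lower and 6.47% higher in cat2 rbohF than in cat2, and 89 of the 95 members were called lower. The split of all calls, 1374 lower and 899 higher, was 1185 and 1095 with each array centred on its median and 1233 and 1097 with quantile normalization again, which called 86 and 85 members lower. The 6 members not called were AT3G28510, AT1G55790, AT1G76640, 253505_at, 263852_at and 252681_at. With the replicate number as a block, 92 members were called, AT1G55790, AT1G76640, 263852_at and 252681_at included and 267460_at no longer. Between cat2 rbohD and cat2, 0.187% of all tested probe sets were called lower and 0.0216% higher, and limma called no member. An unadjusted limma p under 0.05 was reached by 2 of the 95 members, against 1499 of all 13888 probe sets. The rule limited how far a member's cat2 rbohD mean could lie below cat2, so few such members follow from the choice. The lack of calls does not show that the members stayed the same in cat2 rbohD, where their values also varied more. The median spread of the members over the 3 cat2 rbohD arrays, an SD of 0.36, was larger than in cat2 (0.16) and in cat2 rbohF (0.24). The SD was largest in cat2 rbohD for 62 members. Over all probe sets tested, the median SDs were 0.11 in cat2, 0.13 in cat2 rbohD and 0.10 in cat2 rbohF.

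Set directly against cat2 rbohD, the cat2 rbohF means differed by -1.54 to -0.54, with a median of -0.78. limma called 30 of the 95 members lower in this contrast, where 1.06% of all tested probe sets were called lower. Without cat2 rbohD replicate 3 it called 82 members lower, among 675 probe sets called lower in all, where the fit of all arrays gave 147. Without cat2 rbohF replicate 1, or with the fit limited to the 6 arrays compared, it called no probe set lower. All 3 cat2 rbohF arrays lay below all 3 cat2 rbohD arrays for 79 members, an arrangement met by 13.4% of all tested probe sets. The other 16 overlapped, among them AT3G28510, AT1G43910, AT5G52750, GFAT, AT1G80130, AT1G55790, AT3G60540 and AT4G23610. Both contrasts draw on the cat2 rbohF arrays that chose the members, so these counts support nothing further.

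All 3 cat2 rbohD arrays lay below all 3 cat2 arrays for 7 members (7.37%), where 7.24% of all tested probe sets did, so the share was that of the background. These were AT2G18690, AT3G14470, AT4G34150, 246821_at, 250289_at, 259297_at and 257295_at. No member had all cat2 rbohD arrays above all cat2 arrays, where 6.13% of all tested probe sets did, and the remaining 88 overlapped. For 15 members, every cat2 rbohD array stood at or above the lowest cat2 array, replicate 3 included. The share over all tested probe sets was 45.2%.

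The members form the edge of a larger group rather than a separate cloud. In all, 440 probe sets met the conditions on cat2 and cat2 rbohF, and the members are 21.6% of these; the other 345 were lower in cat2 rbohD by 0.3 or more. The 345 had a median difference of -1.12 in cat2 rbohF and -0.55 in cat2 rbohD, and 218 of them, 63.2%, were at least 2-fold lower in cat2 rbohF, against 36.8% of the members. Their array medians in cat2 rbohD were -0.49, -0.42 and -0.82, so replicate 3 was the lowest there too, for 256 of the 345 (74.2%). The rule separated the groups by the cat2 rbohD mean, so none of these gaps was tested.

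**Figure D3:**
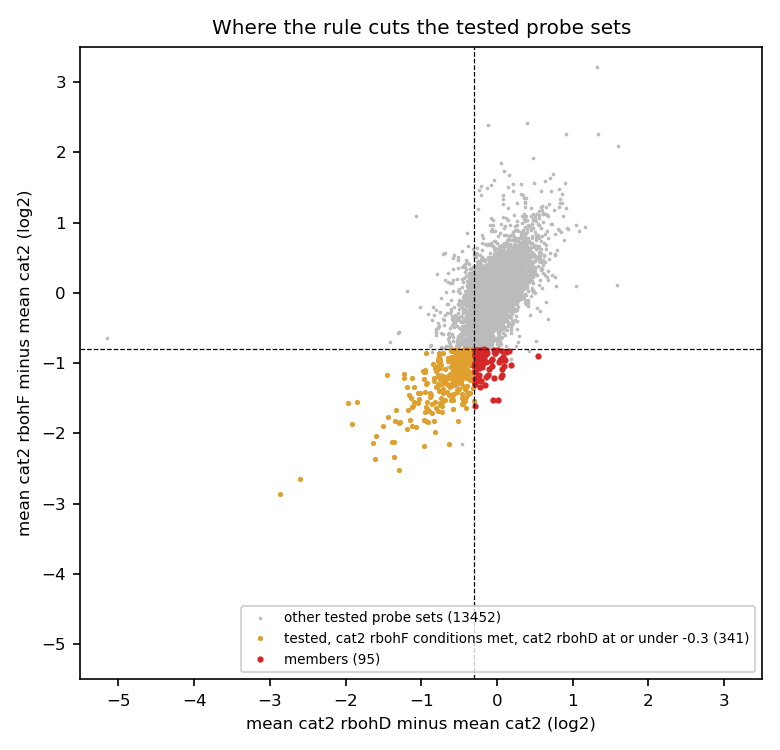
Each point is 1 of the 13888 tested probe sets, with the mean cat2 rbohD minus cat2 difference on the horizontal and the mean cat2 rbohF minus cat2 difference on the vertical axis (log2); red points are the 95 members, yellow points 341 of the 345 probe sets that met the cat2 rbohF conditions but not the cat2 rbohD one (the other 4 fell to the filter on dim probe sets), and dashed lines are the thresholds. Red and yellow points touch along the vertical threshold with no gap between them.

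Just inside the cat2 rbohF threshold lay AT4G23610 at -0.801, AT1G03660 at -0.808 and 251975_at at -0.809, and just outside lay AT1G10340 at -0.798, 267289_at at -0.798 and 263478_at at -0.794. At the cat2 rbohD threshold, 264867_at (-0.299), 246821_at (-0.292) and 253505_at (-0.291) were in, and AT5G66890 (-0.301), AT4G00700 (-0.301) and 254784_at (-0.302) were out. At the minimum cat2 mean, AT1G76640 at 5.51, 258377_at at 5.63 and 259297_at at 5.67 were in, and MMP at 5.34, LUP5 at 5.23 and UGT71B6 at 5.17 were out. A further 5 probe sets failed because a single condition, that cat2 rbohF and cat2 arrays must not overlap, was not met.

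The annotation gave 1 gene for 41 members and several for 2, and did not list the other 52, which are called by their probe set. The median difference in cat2 rbohF was -0.92 for the 41 and -0.96 for the 52. Of the 41 genes, 40 had a RefSeq record, of which 11 lay on chromosome 1, 2 on chromosome 2, 9 on chromosome 3, 5 on chromosome 4 and 13 on chromosome 5. The nearest pair was AT5G52750 and AT5G52810, with 5 genes between them; the positions of the other 55 members were not used here. The account below follows the roles of the 41 genes, each gene with its values on replicates 1, 2 and 3.

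Several members act at the cell surface or in immune perception. GLR2.7, a glutamate receptor-like channel, read 8.19, 8.02 and 8.03 in cat2, 8.25, 7.99 and 7.31 in cat2 rbohD and 6.69, 7.26 and 6.78 in cat2 rbohF. Its cat2 rbohD replicates 1 and 2 were close to the cat2 arrays, while replicate 3 lay just above the highest cat2 rbohF array, so the mean was 2.25-fold lower in cat2 rbohF, and the cat2 rbohD difference was -0.24. The receptor-like kinase gene AT1G51860 gave 6.90, 6.62 and 7.23 in cat2, 6.89, 6.65 and 6.64 in cat2 rbohD and 5.67, 6.07 and 5.84 in cat2 rbohF, and it is a member whose 3 cat2 rbohD arrays all stayed inside the cat2 range.

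AT5G38210, a protein kinase gene, was 6.91, 6.92 and 6.88 in cat2, 7.01, 6.87 and 6.58 in cat2 rbohD and 5.91, 6.06 and 5.81 in cat2 rbohF. Its cat2 arrays differed by little, and its cat2 rbohF arrays were a tight group, with a mean difference of -0.97. AT3G14470, which encodes a nucleotide-binding leucine-rich repeat protein of the resistance protein type, read 7.06, 7.17 and 7.10 in cat2, 7.02, 7.06 and 6.42 in cat2 rbohD and 6.03, 6.38 and 5.97 in cat2 rbohF. All its cat2 rbohD arrays lay below its cat2 arrays, replicates 1 and 2 by a small margin. The probe set 252450_s_at, shared by the leucine-rich repeat kinase genes AT3G47580 and AT3G47090, differed by -0.82 in cat2 rbohF and cannot be given to either gene.

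The gene AT3G10930, also called IDL7, encodes a small peptide related to the abscission peptide IDA. Its values were 6.35, 6.71 and 5.78 in cat2, 5.93, 6.67 and 6.14 in cat2 rbohD and 4.61, 5.22 and 5.36 in cat2 rbohF. The cat2 and cat2 rbohD arrays overlapped fully and the cat2 rbohF arrays lay below both, at a mean of 5.06 ± 0.40 (SD, n = 3), which is under 5.14, the level taken here as dim, where differences are compressed. Of the 95 members, 9 had a cat2 rbohF mean under this level.

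Genes of protein turnover included a ubiquitin ligase with high signal. RING1, a RING-type E3 ligase, stood at 10.58, 10.42 and 10.57 in cat2, 10.93, 10.71 and 10.24 in cat2 rbohD and 9.46, 9.76 and 9.49 in cat2 rbohF. Replicates 1 and 2 of cat2 rbohD were above every cat2 array and replicate 3 below, and all were above every cat2 rbohF array, so RING1 had a positive mean difference in cat2 rbohD (0.11) beside -0.95 in cat2 rbohF. AT3G61390, which encodes a U-box protein, the other main kind of single-chain ubiquitin ligase, differed from cat2 by -0.94 in cat2 rbohF and by -0.20 in cat2 rbohD.

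The aspartyl protease gene AT3G51330 read 8.17, 8.46 and 8.52 in cat2, 8.62, 8.53 and 7.82 in cat2 rbohD and 7.27, 7.72 and 7.34 in cat2 rbohF. Again cat2 rbohD replicates 1 and 2 stood above the cat2 arrays and replicate 3 beneath them, close to cat2 rbohF replicate 2. In a second aspartyl protease gene, AT1G44130, replicate 3 was again the cat2 rbohD array below all cat2 arrays, with 7.61, 8.12 and 7.99 in cat2, 7.95, 8.37 and 7.30 in cat2 rbohD and 7.03, 7.19 and 7.04 in cat2 rbohF.

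The member of the salicylic acid and pipecolic acid list was AT5G52810, known as SARD4, a reductase in the synthesis of pipecolic acid, the precursor of the systemic immunity signal N-hydroxypipecolic acid. It gave 9.82, 10.003 and 9.94 in cat2, 9.87, 10.11 and 9.39 in cat2 rbohD and 8.86, 9.35 and 8.97 in cat2 rbohF. The lowest cat2 rbohD array, replicate 3, almost met the highest cat2 rbohF array, replicate 2. Means were 9.92 ± 0.09, 9.79 ± 0.37 and 9.06 ± 0.26 (SD, n = 3 each), a 1.82-fold lower level in cat2 rbohF than in cat2.

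Enzymes of secondary metabolism made up another group. AT5G42830, an acyltransferase of the HXXXD type, read 8.35, 8.00 and 8.01 in cat2, 8.14, 7.99 and 7.52 in cat2 rbohD and 6.94, 6.94 and 6.74 in cat2 rbohF, where the cat2 rbohF arrays lay clear of all others. UGT73D1, a glucosyltransferase gene, was at 6.39, 7.03 and 6.46 in cat2, 6.46, 7.06 and 6.51 in cat2 rbohD and 5.53, 6.10 and 5.44 in cat2 rbohF. In UGT73D1 replicate 2 was the highest array of every genotype, and every cat2 rbohD array lay at or above the lowest cat2 array.

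The probe set 253268_s_at, which the annotation gives to both UGT73B2 and UGT73B3, a pair of closely related flavonoid glucosyltransferase genes, read 8.87, 9.04 and 8.28 in cat2, 8.80, 8.81 and 7.99 in cat2 rbohD and 7.85, 8.02 and 7.51 in cat2 rbohF. Its cat2 rbohD and cat2 rbohF arrays overlapped. The carboxylesterase gene AT1G68620 had 9.58, 10.06 and 10.33 in cat2, 9.52, 9.71 and 9.87 in cat2 rbohD and 8.90, 9.26 and 9.32 in cat2 rbohF, and here replicate 3 was the highest cat2 rbohD array, unlike in most members. The class III peroxidase gene AT5G19880 read 5.79, 6.74 and 6.49 in cat2, 6.25, 6.66 and 6.31 in cat2 rbohD and 5.21, 5.54 and 5.39 in cat2 rbohF, so its cat2 rbohD arrays fell inside the cat2 range.

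Members of the secretory pathway included BZIP60, the transcription factor that is made active by splicing in the unfolded protein response. BZIP60 gave 9.95, 10.02 and 9.88 in cat2, 9.97, 9.75 and 9.43 in cat2 rbohD and 8.98, 9.22 and 9.15 in cat2 rbohF. Its cat2 rbohF arrays lay below all others, 1.78-fold lower than cat2 on average, and the array values do not tell the spliced from the unspliced form. AT3G60540, a Sec61 beta subunit gene of the channel through which proteins enter the endoplasmic reticulum, read 9.30, 9.23 and 8.87 in cat2, 9.13, 9.18 and 8.54 in cat2 rbohD and 8.15, 8.57 and 8.13 in cat2 rbohF. Its cat2 rbohD replicate 3 lay just under cat2 rbohF replicate 2.

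GFAT, which makes the hexosamine used for sugar chains on proteins, differed from cat2 by -0.89 in cat2 rbohF and by -0.28 in cat2 rbohD, the latter through replicate 3 at 6.36 beside 7.01 and 7.26. The galactosyltransferase gene AT5G62620 and the Sec14-like lipid transfer gene AT5G47730 differed by -0.83 and -0.82 in cat2 rbohF. Their cat2 rbohD differences were -0.27 and -0.22, near the edge of the rule.

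Calcium-binding proteins were encoded by 3 members. AT4G27280, with an EF-hand, read 10.29, 10.05 and 9.58 in cat2, 9.80, 10.09 and 9.52 in cat2 rbohD and 8.67, 9.09 and 9.38 in cat2 rbohF. Its arrays ran widely in every genotype, and cat2 rbohF replicate 3 came close to the lowest cat2 array. AT1G76640, the calmodulin-like gene CML39, had 5.08, 6.26 and 5.19 in cat2, 5.07, 5.83 and 4.91 in cat2 rbohD and 4.72, 4.65 and 4.66 in cat2 rbohF; the cat2 mean rested on replicate 2, all cat2 rbohF arrays were in the dim range, and limma called it with the replicate number as a block but not without. The C2-domain gene AT4G34150 was 9.74, 9.81 and 9.64 in cat2, 9.60, 9.60 and 9.22 in cat2 rbohD and 8.65, 9.12 and 8.95 in cat2 rbohF, stepping down from each genotype to the next with no overlap.

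SAL2, a relative of the phosphatase SAL1 that acts on nucleotide and inositol phosphates, showed the largest difference of the 41 genes. It read 9.09, 8.45 and 8.52 in cat2, 9.12, 9.08 and 7.91 in cat2 rbohD and 7.01, 7.59 and 6.88 in cat2 rbohF. The cat2 and cat2 rbohD means were alike at 8.69 ± 0.35 and 8.70 ± 0.69, but cat2 rbohD spanned more than a 2-fold range, with replicate 3 below all cat2 arrays, and the cat2 rbohF mean was 7.16 ± 0.38 (SD, n = 3 each), 2.89-fold lower than cat2. AT5G51830, a sugar kinase gene of the fructokinase type, differed from cat2 by -0.83 in cat2 rbohF and by -0.15 in cat2 rbohD.

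AAA-type ATPases, proteins that use ATP to remodel other proteins or complexes, were encoded by 3 members. AT5G17760 read 8.43, 8.44 and 8.44 in cat2, 8.31, 8.63 and 7.65 in cat2 rbohD and 7.25, 7.49 and 7.39 in cat2 rbohF, with the cat2 arrays nearly identical and cat2 rbohD replicate 3 far nearer to cat2 rbohF than to cat2. AT1G43910 stood at 7.83, 8.10 and 7.79 in cat2, 7.65, 8.29 and 6.95 in cat2 rbohD and 6.54, 7.03 and 7.12 in cat2 rbohF, so that cat2 rbohD replicate 3 lay inside the cat2 rbohF range. AT3G28510 had 6.36, 6.72 and 7.23 in cat2, 6.36, 7.28 and 5.89 in cat2 rbohD and 5.52, 6.27 and 5.44 in cat2 rbohF, again with cat2 rbohD replicate 3 among the cat2 rbohF arrays.

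AT4G03450, one of 2 ankyrin repeat genes among the members, read 9.10, 9.18 and 9.04 in cat2, 8.94, 9.25 and 8.26 in cat2 rbohD and 7.53, 8.24 and 7.64 in cat2 rbohF, a 2.46-fold lower mean in cat2 rbohF than in cat2. Replicate 3 of cat2 rbohD and replicate 2 of cat2 rbohF were nearly equal. The other, AT1G03660, lay near the threshold with a difference of -0.81. Genes of proteins with a heavy-metal-associated domain were AT5G52750 (9.76, 9.54 and 9.15 in cat2, 9.43, 9.58 and 8.82 in cat2 rbohD, and 8.43, 8.96 and 8.30 in cat2 rbohF) and AT5G60800, with differences of -0.92 and -0.83 in cat2 rbohF. In AT5G52750, cat2 rbohD replicate 3 lay below cat2 rbohF replicate 2.

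The other named members have roles that are less clear. AT2G18690, a predicted membrane protein, read 11.52, 11.47 and 11.48 in cat2, 11.46, 11.36 and 10.92 in cat2 rbohD and 10.14, 10.57 and 10.56 in cat2 rbohF, with nearly equal cat2 arrays and no overlap between genotypes. AT1G67920 was 7.63, 7.83 and 7.42 in cat2, 7.67, 7.32 and 7.04 in cat2 rbohD and 6.40, 6.51 and 6.29 in cat2 rbohF. AT1G72240 gave 7.29, 7.28 and 6.76 in cat2, 7.08, 7.64 and 6.80 in cat2 rbohD and 5.57, 6.01 and 6.23 in cat2 rbohF, with every cat2 rbohD array at or above the lowest cat2 array. In both genes, cat2 rbohF lay apart from the other genotypes.

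The rest differed by -0.92 to -0.80 between cat2 rbohF and cat2: AT3G55840, a relative of the nematode resistance gene Hs1pro-1 of beet, the tetratricopeptide repeat gene AT1G80130, and AT5G22540, AT1G23710, AT1G55790, AT4G23880 and AT4G23610. In AT4G23880 no cat2 rbohD array was below the cat2 arrays, with 5.81, 5.81 and 6.005 in cat2, 5.96, 6.005 and 6.04 in cat2 rbohD and 5.10, 5.24 and 4.74 in cat2 rbohF. In AT3G55840 replicate 3 was the highest cat2 rbohD array, at 5.92 beside 5.22 and 5.43. The cat2 rbohF means of AT4G23880 and AT3G55840, at 5.03 and 4.88, were in the dim range under 5.14.

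**Figure D4:**
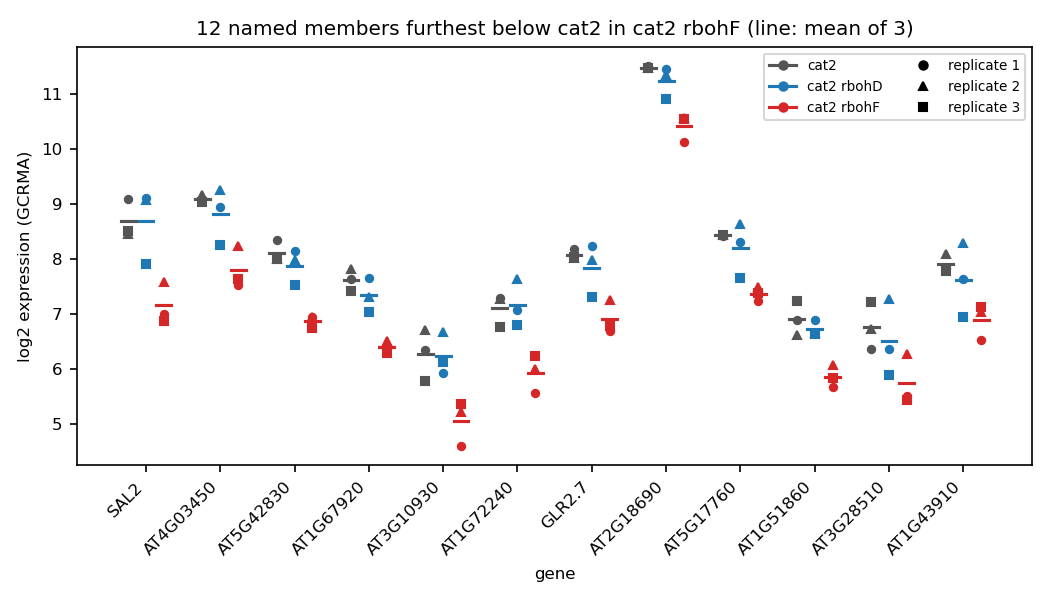
The 12 members with 1 gene and the largest difference are on the horizontal axis, and each symbol is the log2 value of 1 array (vertical axis), coloured by genotype and shaped by replicate, with short lines at the genotype means. In 9 of the 12 genes cat2 rbohD replicate 3 lies below every cat2 array, and the exceptions are AT3G10930, AT1G72240 and AT1G51860. The share over all tested probe sets was not counted.

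Among members without a gene name, the 3 largest differences were as follows. 254252_at read 7.58, 7.05 and 7.09 in cat2, 7.56, 7.20 and 6.11 in cat2 rbohD and 5.51, 6.02 and 5.34 in cat2 rbohF, 3.07-fold lower, the largest of all 95, and cat2 rbohD replicate 3 stood near the cat2 rbohF arrays. 250073_at was 10.44, 10.59 and 10.34 in cat2, 10.42, 10.25 and 10.53 in cat2 rbohD and 8.98, 8.67 and 9.16 in cat2 rbohF, 2.87-fold lower. In contrast to most members, cat2 rbohD replicate 3 of 250073_at was its highest cat2 rbohD array, and all 3 were more than 1 above every cat2 rbohF array. 245035_at stood at 10.06, 10.71 and 10.34 in cat2, 10.16, 10.76 and 9.50 in cat2 rbohD and 8.63, 9.48 and 8.99 in cat2 rbohF, with cat2 rbohD replicate 3 and cat2 rbohF replicate 2 nearly equal.

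A pair of unnamed members, singled out after their values were seen, had unusual cat2 rbohD arrays. 252681_at had 6.002, 6.27 and 6.21 in cat2, 7.003, 7.07 and 6.02 in cat2 rbohD and 4.91, 5.92 and 4.95 in cat2 rbohF, which gave it the largest positive cat2 rbohD difference, 0.54. 253505_at read 5.47, 5.79 and 6.82 in cat2, 4.98, 4.95 and 7.27 in cat2 rbohD and 5.34, 4.98 and 4.36 in cat2 rbohF. There, cat2 rbohD replicates 1 and 2 lay below every cat2 array, and replicate 3 was the highest of the 9, so that the cat2 rbohD difference was -0.29 with replicate 3 and -1.06 without it. limma did not call it.

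Membership depended on single arrays. When each of the 9 arrays was left out in turn and the rule applied again, 17 of the 95 members were found every time, of which 7 had 1 gene: SAL2, AT3G10930, AT1G72240, AT5G38210, RING1, AT3G51330 and AT5G22540. Without cat2 rbohD replicate 3, 196 probe sets met the rule, with 92 of the 95 among them, and without cat2 rbohD replicate 2, 59 did. Without cat2 rbohF replicate 2, which was the highest cat2 rbohF array for 69 of the 95, 143 did.

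Genes of the same pathways that are no members were also counted, from lists in which the annotation could name few genes. Of all tested probe sets, 9.89% were called lower and 6.47% higher in cat2 rbohF against cat2, beside which the counts below stand. The lists were chosen with earlier results of these data known, so a share above that background supports nothing further. Of 6 tested genes of salicylic acid and N-hydroxypipecolic acid signalling, 4 fell in cat2 rbohF, among them the member AT5G52810. The non-members were WRKY53, a transcription factor that acts in senescence (-1.98; limma adjusted p = 0.00332), UGT76B1, which glucosylates salicylic acid and N-hydroxypipecolic acid (-1.65; adjusted p = 0.0337, and up to 0.118 without 1 array), and the glutaredoxin gene GRX480 (-0.71; adjusted p = 0.00333), while SAG101 and BSMT1 did not pass. WRKY53 and GRX480 kept their calls without any 1 array, and AT5G52810 and UGT76B1 did not. Their cat2 rbohD differences were -0.82, -0.58 and -0.28, of which none passed, as against -0.13 for AT5G52810. The median of the 6 was -0.79 in cat2 rbohF, where the median of all probe sets tested was 0.00765.

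Of 7 tested genes of endoplasmic reticulum folding, 3 fell in cat2 rbohF and none rose: the member BZIP60, the cochaperone gene ATERDJ3B (-0.63, limma adjusted p = 0.0144) and BZIP28, a second factor of the unfolded protein response (-0.43, limma adjusted p = 0.0114). Both non-members lost the call without 1 array (limma adjusted p up to 0.0628 and 0.0566), and the median of the 7 was -0.28. Of 5 tested genes of calcium signalling, the calmodulin-like genes CML37 (-1.68), CML41 (-0.79) and CML42 (-0.57) fell, CML38 (-0.51) and the member AT1G76640 did not pass, and each of the 3 lost the call without 1 array (limma adjusted p up to 0.0555, 0.0660 and 0.0824).

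Of 29 tested glycosyltransferase genes of the UGT family, 6 fell in cat2 rbohF (20.7%), the member UGT73D1 included, and 2 rose, UGT88A1 and UF3GT, with a family median of 0.08. UGT87A2 fell by 0.89 and kept its call without any 1 array; the other 5 that fell, UGT73D1 among them, and both that rose lost theirs (limma adjusted p up to 0.128).

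The family of genes with a CML, CPK, CNGC or ACA symbol held the member AT1G76640 again. Of its 7 tested genes, 3 fell and none rose, and no call was kept without 1 array. The remaining lists and families held no member. Lists and families shared genes, so their counts are not independent. WRKY6 and PUB24 were counted under pattern-triggered immunity and again in the WRKY and PUB families. WRKY53 and UGT76B1 were counted under salicylic acid and again in their families, and UGT73B4 and UGT73B5 under oxidative stress markers and in the UGT family. In the lists of pattern-triggered immunity 4 of 8 genes fell, in heat shock 3 of 3, in oxidative stress markers 4 of 4, in tryptophan-derived defence metabolism 2 of 2, in jasmonate response 2 of 3, in mitochondrial retrograde markers 1 of 2, in the WRKY family 3 of 6, in the PUB family 1 of 6 and among genes with a CYP symbol 5 of 15, and none in them rose. In the GST family, 1 of 8 fell and 2 rose, with a median of 0.17, and the single tested gene of leaf senescence, SAG29, rose by 1.59. Without 1 array, calls were kept by 2 of the 4 immunity genes (WRKY6 and PUB24), 2 of the 3 heat shock genes and both tryptophan genes. The mitochondrial and PUB genes, all 3 WRKY genes and 1 of the 5 CYP genes also kept theirs. None of the oxidative stress, jasmonate, GST or senescence genes did (limma adjusted p up to 0.145). The CYP symbol covers cytochrome P450 and cyclophilin genes. AT4G33060, the CYP gene that kept its call, is a cyclophilin gene, and no called CYP71B gene kept its call. WRKY47, at 7.33, 7.35 and 7.49 in cat2, 7.58, 7.47 and 7.37 in cat2 rbohD and 6.76, 7.03 and 6.83 in cat2 rbohF, had the members' pattern at a smaller size: it fell by 0.52 in cat2 rbohF (limma adjusted p = 0.00845) and was 0.08 higher in cat2 rbohD. No listed gene of any of these lists passed in cat2 rbohD against cat2, which does not show that they stayed the same. Median differences in cat2 rbohD and cat2 rbohF were -1.84 and -1.55 for jasmonate and -0.80 and -1.33 for tryptophan genes. They were -0.59 and -1.10 for oxidative stress, -0.38 and -1.13 for heat shock and -0.21 and -0.50 for immunity genes. For WRKY, PUB, CYP and GST genes the cat2 rbohD medians were -0.12, -0.17, -0.07 and 0.12.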

How the data were processed

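The authors deposited log2 expression values per probe set from Affymetrix arrays, hybridised with cRNA made from 5 µg of RNA per the labels' protocols. Per the submitters' processing notes the method was GCRMA, with no version in the sources used here; it gives all arrays nearly 1 distribution, so a shift of most transcripts would not show; array medians lay between 6.06 and 6.12. Arrays have no read depth, and 3 per genotype limit the precision.

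Of 22810 probe sets, 64 controls were dropped. Probe sets whose third-highest value exceeded 5.14, the 40th percentile, were tested (13888, with all 95 members) in limma 3.58.1 with R 4.3.3 (lmFit, eBayes, 2-sided, 1 mean per genotype over all 9 arrays, 6 residual degrees of freedom, Benjamini-Hochberg). The platform annotation gave 1 gene for 13513 probe sets, several for 503, and did not list 8730. RefSeq (TAIR10.1) matched 13436 by Entrez gene ID. Members and gene lists were chosen with earlier results of these data known. Named first were the 12 genes with the largest difference, the 12 with the highest cat2 mean, list members and those nearest each threshold; other members were named after their values were seen. The deviations of same-numbered arrays from their group means correlated at 0.142, 0.150 and 0.171 between cat2 and cat2 rbohF. In that comparison the numbers were treated as a possible pairing, from the data and not from the labels. The fit with the block is given where it changes a call. The block was fitted over all 9 arrays, so these calls draw on the cat2 rbohD arrays too. With cat2 rbohD the correlations ran from -0.235 to 0.250 (3 of 6 above 0.1) and did not pair the arrays. Arrays of other numbers gave -0.293 to 0.312, a range that holds the values between cat2 and cat2 rbohF, so the pairing is uncertain. Promoter sequences were not used here, so the planned motif shares were not computed. Alternatives tried were other filters, scalings, variance models, thresholds, the replicate number as a block, the 6 arrays compared alone, and each array left out.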

Additional observations from a re-analysis of the deposited data

How the results depend on the processing

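The rule found 95 members, and the count moved with its thresholds: 165 with a cat2 rbohF difference of -0.7 or less, 57 with -0.9 or less, 48 with a cat2 rbohD difference above -0.2 and 158 above -0.4. It ranged from 59 to 196 over the 9 runs that each left out an array. The other rule settings gave between 90 and 100 probe sets, but not always the same ones. With arrays centred on their medians, 98 met the rule, with 81 of the 95 members among them. Quantile normalization again also gave 98, with 82 of the members. The median difference of the 95 members ranged from -1.05 to -0.87 in cat2 rbohF and from -0.29 to -0.02 in cat2 rbohD without 1 array; the rule used these values, so the ranges show no stability.

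In cat2 rbohF against cat2, limma called 2273 probe sets, and 817 to 2704 in the runs without 1 array. In cat2 rbohD against cat2, 29 were called (1499 at an unadjusted p under 0.05), 12 with a 60th percentile filter, 15 with the 6 arrays compared and 7 to 35 without 1 array. In cat2 rbohF against cat2 rbohD, 267 were called, 164 with no filter, 455 with the 60th percentile filter, 2 with the 6 arrays compared and 1 to 1065 without 1 array. Quantile normalization again gave 127 lower and 157 higher there, beside 147 and 120. The causes were not tested. The members called lower in cat2 rbohF against cat2 numbered 47 to 94 without 1 array, in runs that called 568 to 1593 probe sets lower in all.

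With the replicate number as a block, 2300, 54 and 393 probe sets were called in cat2 rbohF against cat2, cat2 rbohD against cat2 and cat2 rbohF against cat2 rbohD, and 49 in place of 30 members were lower in the last. The block changed the call in cat2 rbohF against cat2 of 5 members and of no other listed gene. In both comparisons with cat2 rbohD the numbers did not pair the arrays, so the block has no basis there. The planned promoter motif shares, with a shorter window as alternative, were not run, since promoter sequences were not used here.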
